A study of Homo sapiens with 17 samples.

Results

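IMR-90, a diploid fibroblast line from human fetal lung, was compared by bulk RNA-seq before and 1 week after a pulse of etoposide. The comparison takes the 6 libraries labelled day 7, from cells given 20 µM etoposide for 48 h and then grown without the drug until harvest, against the 5 libraries of untreated cells collected as week 0. These are 11 of the 17 libraries of the series. The other 6, harvested at week 4, were not compared here. They did enter the choice of genes to test, the scaling and the estimate of the spread of each gene. All libraries come from the same line, grown in medium with serum. The labels do not say whether replicates came from separate cultures, so every p-value rests on a spread among libraries that could be purely technical. Untreated cells exist at week 0 alone, with no vehicle control and no untreated culture kept for the extra week. The effect of etoposide and that of time in culture therefore cannot be told apart.

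Etoposide traps type II topoisomerases on DNA after they have cut both strands, and the breaks that remain activate the kinase ATM and the transcription factor p53. In fibroblasts p53 induces CDKN1A (p21), which keeps the RB family of pocket proteins unphosphorylated. These proteins then hold repressor complexes on promoters, at E2F sites in genes of DNA replication and at the CHR element (cell cycle genes homology region) in genes of mitosis. Cells that leave the cycle for good in this way are called senescent, and they are known for a large cytoplasm, active lysosomes and a secretion rich in matrix, proteases and cytokines.

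Libraries held 77.2 to 96.0 M counts on named genes, and levels are given as CPM, counts per 1 M counts, on library sizes scaled by TMM, a method that corrects for composition. Values after ± are SD over the 5 or 6 libraries unless SE is written. The groups were separated along the first principal component (68.5% of the variance). Along the second (5.6%) week 0 replicates 1 and 4 stood apart from the other week 0 libraries, with 6.38% and 5.62% of their counts on ribosomal protein genes against 3.48% to 4.20% in the other 3. Week 0 replicates 5 and 6 and week 1 replicates 1 and 2 were deposited as tables that also hold gene lengths, and the rest without. Where the call of a named gene changed with 1 of these table formats alone, this is stated. List medians are those of the fit on all libraries unless stated. Many of them moved in fits on 1 table format alone, as counted at the end. The tables with lengths alone also leave out week 0 replicates 1 and 4. In that fit table format and these libraries cannot be told apart. Genes with at least 1 count numbered 19606 ± 174 at week 0 and 21013 ± 189.7 at week 1 when every library was thinned to the depth of the shallowest (exact two-sided permutation test, adjusted p = 0.0076, 14 comparisons). The defining fibroblast markers COL1A1, COL1A2, THY1, PDGFRA and VIM were all expressed, and leukocyte markers summed to 0.876 ± 0.106 and 1.23 ± 0.117 CPM. All 37 mitochondrially encoded genes were listed at 0 in every library, as were TAP1, PSMB8, PSMB9, HLA-F, HLA-G and TNF, so mitochondrial transcription and much of antigen presentation cannot be read here.

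A gene was called when edgeR's quasi-likelihood test gave a Benjamini-Hochberg adjusted p under 0.05 over the 16891 genes tested. By this rule 11305 genes changed (66.9%), of which 5565 rose (32.9%) and 5740 fell (34.0%). More than 2-fold changes numbered 1964 up (11.6%) and 1533 down (9.08%). The libraries of the groups did not overlap in 4177 of the genes that rose (24.7% of those tested) and 4044 of those that fell (23.9%). The median log2 fold change of all tested genes was -0.022, and -0.184 without scaling, so all changes are relative to the TMM scale. Every count of a gene list in the following stands against these shares: about 1 in 3 of all tested genes rose and 1 in 3 fell. The share was higher among better expressed genes. With a filter of 5 CPM in 5 libraries, 8231 of 10450 genes tested were called (78.8%), 3935 up and 4296 down. The lists are described by their counts and medians and were not tested as sets.

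**Figure D1:**
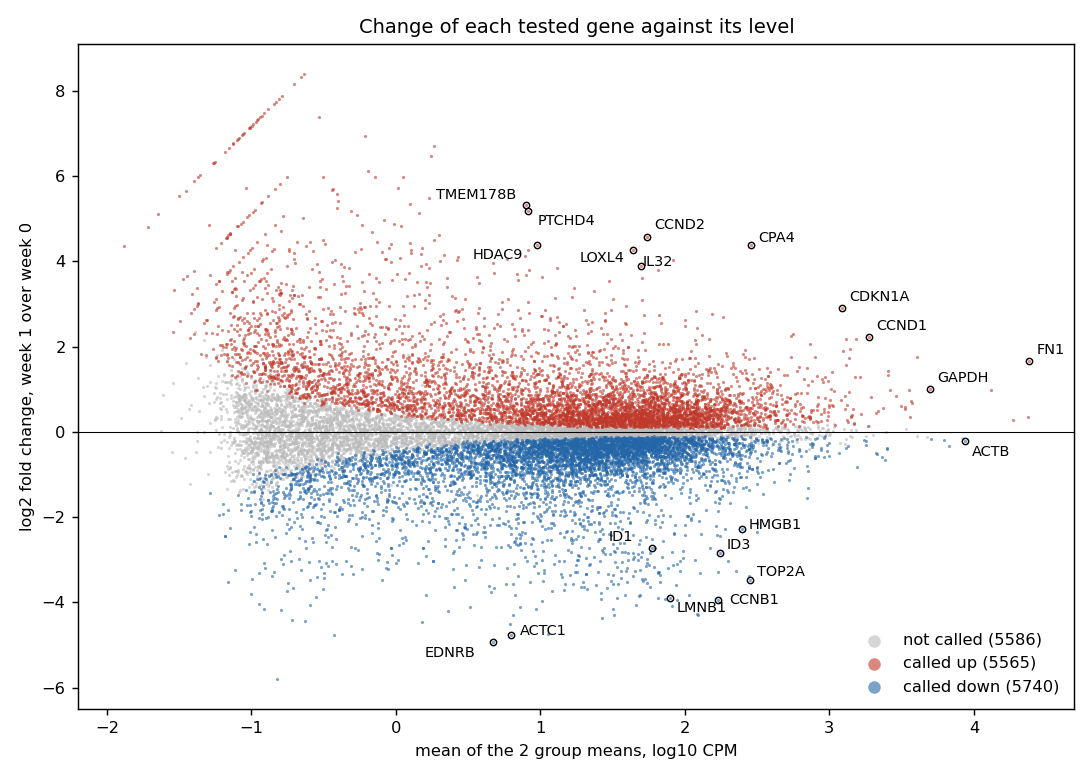
Log2 fold change of each of the 16891 tested genes (week 1 over week 0, vertical) against the log10 of the mean of the group means in CPM (horizontal), coloured by call, with 20 genes circled and named. Changes in both directions run from barely expressed genes to FN1, at the right edge, and the cloud of strong falls between 10 and 500 CPM holds the cell division genes CCNB1, LMNB1 and TOP2A.

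The p53 response was uneven at 1 week. CDKN1A stood at 264, 293, 275, 295 and 296 CPM in the 5 untreated libraries and at 2049.5 to 2197 (median 2138) in the 6 treated ones, a 7.53-fold rise with no overlap. Of 19 tested p53 targets that act in growth arrest, 12 rose and 6 fell (median log2 fold change 0.83). The antiproliferative BTG2 went from 7.78 to 47.8 CPM, the growth arrest gene GADD45A from 21.7 to 73.3 CPM and the RNA-binding p53 effector ZMAT3 from 40.4 to 133 CPM. The members that fell included GTSE1 (70.5 to 7.36 CPM), which is itself a mitotic gene that restrains p53, and BTG3 (35.1 to 20.7 CPM).

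Target genes in metabolism and in secretion moved most uniformly. None of the 19 tested metabolic and antioxidant targets fell and 15 rose (median 1.06). All 3 sestrins, leucine and stress sensors that restrain mTORC1, rose: SESN1 from 7.86 to 16.5 CPM, SESN2 from 27.1 to 75.04 CPM and SESN3 from 9.204 to 33.5 CPM. TXNIP, an inhibitor of thioredoxin and of glucose uptake, went from 131 to 427 CPM. Of 20 secreted and surface targets 16 rose and 1, CCN3, fell. The stress cytokine GDF15 rose from 7.67 ± 0.504 to 93.0 ± 5.27 CPM and the IGF-binding protein IGFBP3 from 525 ± 39.0 to 1950.3 ± 98.0 CPM.

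Of the apoptotic targets 15 of 21 rose and 3 fell. BAX, the pore-forming executioner, was 90.5, 97.0, 95.2, 101 and 98.4 CPM at week 0 and 91.9 to 104 (median 95.8) at week 1, so its groups overlapped (log2 fold change 0.00 ± 0.04 SE, adjusted p = 1). The nuclease gene AEN was likewise not called (83.0 to 83.8 CPM, adjusted p = 0.81). The BH3-only gene BBC3 (PUMA) rose from 3.33 to 14 CPM and the survival gene BCL2L1 (BCL-XL) from 40.3 to 85.1 CPM, whereas CASP6 fell from 23.1 to 8.13 CPM. The death receptor TNFRSF10B went from 108 to 307 CPM and its decoys TNFRSF10D and TNFRSF10C, which bind the same ligand but do not transmit a full death signal, from 139 to 461.5 CPM and from 0.300 to 4.95 CPM. Outside this list BID rose from 46.5 to 81.8 CPM and BCL2 fell from 2.27 to 0.822 CPM.

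Of the feedback list of p53 5 of 11 tested members rose and 2 fell (median 0.14). The ubiquitin ligase gene RCHY1 (11.5 to 11.2 CPM) was not called (adjusted p = 0.77). MDM2, the ligase that degrades p53 and is its target, rose 2.41-fold, and its partner MDM4 fell from 14.9 to 9.51 CPM. Repair targets also divided: the ribonucleotide reductase subunit RRM2B, which serves repair outside S phase, rose from 28.9 to 91.0 CPM while DDB2, a sensor of UV lesions, was 26.7, 25.7, 27.3, 26.3 and 27.5 CPM and then 23.4 to 26.7 (median 24.99) (adjusted p = 0.14).

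PTCHD4, a Patched-like membrane protein encoded by a p53 target, ranked second among the steepest rises of genes with at least 5 CPM in the higher group and no overlap. It stood at 0.304, 0.415, 0.301, 0.566 and 0.592 CPM at week 0 and at 13.7 to 17.4 (median 16.4) at week 1, a 36.4-fold change (adjusted p = 2.4e-19). Its first-listed promoter in RefSeq (build GRCh38.p14) ends in a full match to the p53 response element consensus directly before the start, and it is shown because such matches were rare in promoters. The stretch chr6:48111198-48111257, minus strand, is the last 60 bases before the start, 5′ to 3′, with the match in capitals:
PTCHD4: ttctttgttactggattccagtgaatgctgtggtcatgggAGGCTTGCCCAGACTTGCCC
RefSeq windows of 300 bases, 250 before to 50 after a start, were matched by symbol for 12457 of the 16891 tested genes, and any start of a gene counted. The consensus, a pair of decamers with a gap of 0 to 13 bases, was found in 6 of them. Of these 5 were called up and 1 was not called. They were PTCHD4, the noncoding RNAs PURPL (0.107 to 2.38 CPM, site 127 bases before the start) and LNCTAM34A (0.706 to 2.23 CPM, 60 bases before), DYNC2H1 (log2 fold change 0.40 ± 0.13 SE), MCC (0.40 ± 0.08 SE) and DDB2. The call of DYNC2H1 was lost without week 0 replicates 1 and 4 (log2 fold change 0.203, edgeR adjusted p = 0.13) and its sign turned with the tables with lengths alone (log2 fold change -0.072, edgeR adjusted p = 0.52). CDKN1A had no match within this window. LNCTAM34A, DYNC2H1 and MCC were singled out after their values were seen.

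Cyclins D1 and D2 rose while the cyclins of later phases fell. CCND1, which encodes cyclin D1, the partner of CDK4 and CDK6 in RB phosphorylation, stood at 586, 714, 571, 705 and 709.8 CPM in the untreated libraries and at 2892 to 3224 (median 3079.8) in the treated ones. CCND2 rose from 4.39 ± 0.739 to 105 ± 7.81 CPM, 23.9-fold, and CDK6 from 113 ± 18.6 to 222 ± 24.1 CPM. CDK4 fell from 95.3 ± 6.09 to 55.9 ± 3.08 CPM. CCND3 went from 81.5 to 73.9 CPM (log2 fold change -0.14 ± 0.05 SE), a call lost with upper-quartile scaling (-0.07, edgeR adjusted p = 0.20), with the tables without lengths alone (-0.11, edgeR adjusted p = 0.19) and without week 0 replicate 3 (-0.12, edgeR adjusted p = 0.058). Measured per kilobase of gene length, CCND1 went from 138 to 648 CPM per kb, CCND2 from 0.550 to 13.2 and CCND3 from 14.1 to 12.8, so cyclin D1 had the highest of the 3 levels in both groups.

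All 18 tested genes of the E, A and B cyclins, their kinases and their phosphatases fell, 16 of them more than 2-fold (median -2.74). CCNB1, cyclin B1, was 393, 283, 407, 260.3 and 253 CPM at week 0 and 19.1 to 22.2 (median 20.7) at week 1. Its kinase CDK1 fell from 99.9 ± 24.6 to 8.62 ± 0.908 CPM, the S-phase kinase CDK2 from 88.8 ± 4.43 to 21.1 ± 0.810 CPM and the activating phosphatase CDC25B from 203 ± 16.8 to 47.9 ± 1.87 CPM. CCNE1, cyclin E1, was the least changed member, from 8.76 to 7.33 CPM (edgeR adjusted p = 0.02), while CCNE2 fell from 13.3 to 2.18 CPM. The call of CCNE1 was lost with upper-quartile scaling (log2 fold change -0.185, edgeR adjusted p = 0.086), with the tables with lengths alone (log2 fold change -0.188, edgeR adjusted p = 0.22) and without week 0 replicate 3, week 0 replicate 5 or week 1 replicate 3. Whether the changes of these E-type cyclins differ was not tested.

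Of the RB and E2F list 18 of 20 fell and none rose. The activators E2F1 (41.7 to 9.37 CPM) and E2F2 (8.41 to 0.627 CPM), the mitotic activators FOXM1 (161 to 13.5 CPM) and MYBL2 (71.3 to 7.86 CPM) and the pocket protein RBL1 (p107, 30.7 to 6.82 CPM) fell more than 4-fold. RB1 fell from 65.5 to 47.3 CPM, and RBL2 (p130), the pocket protein of quiescent cells, went from 45.9 to 42.3 CPM and was not called (edgeR adjusted p = 0.056). RBL2 was called down without week 0 replicate 1 (log2 fold change -0.161, edgeR adjusted p = 0.0062), without week 1 replicate 6 (log2 fold change -0.133, edgeR adjusted p = 0.045), without week 0 replicates 1 and 4 together (log2 fold change -0.178, edgeR adjusted p = 0.0026) and with the tables with lengths alone (log2 fold change -0.197, edgeR adjusted p = 0.011). E2F4 and E2F6, which act as repressors, fell by 0.49 and 0.41 on the log2 scale.

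**Figure D2:**
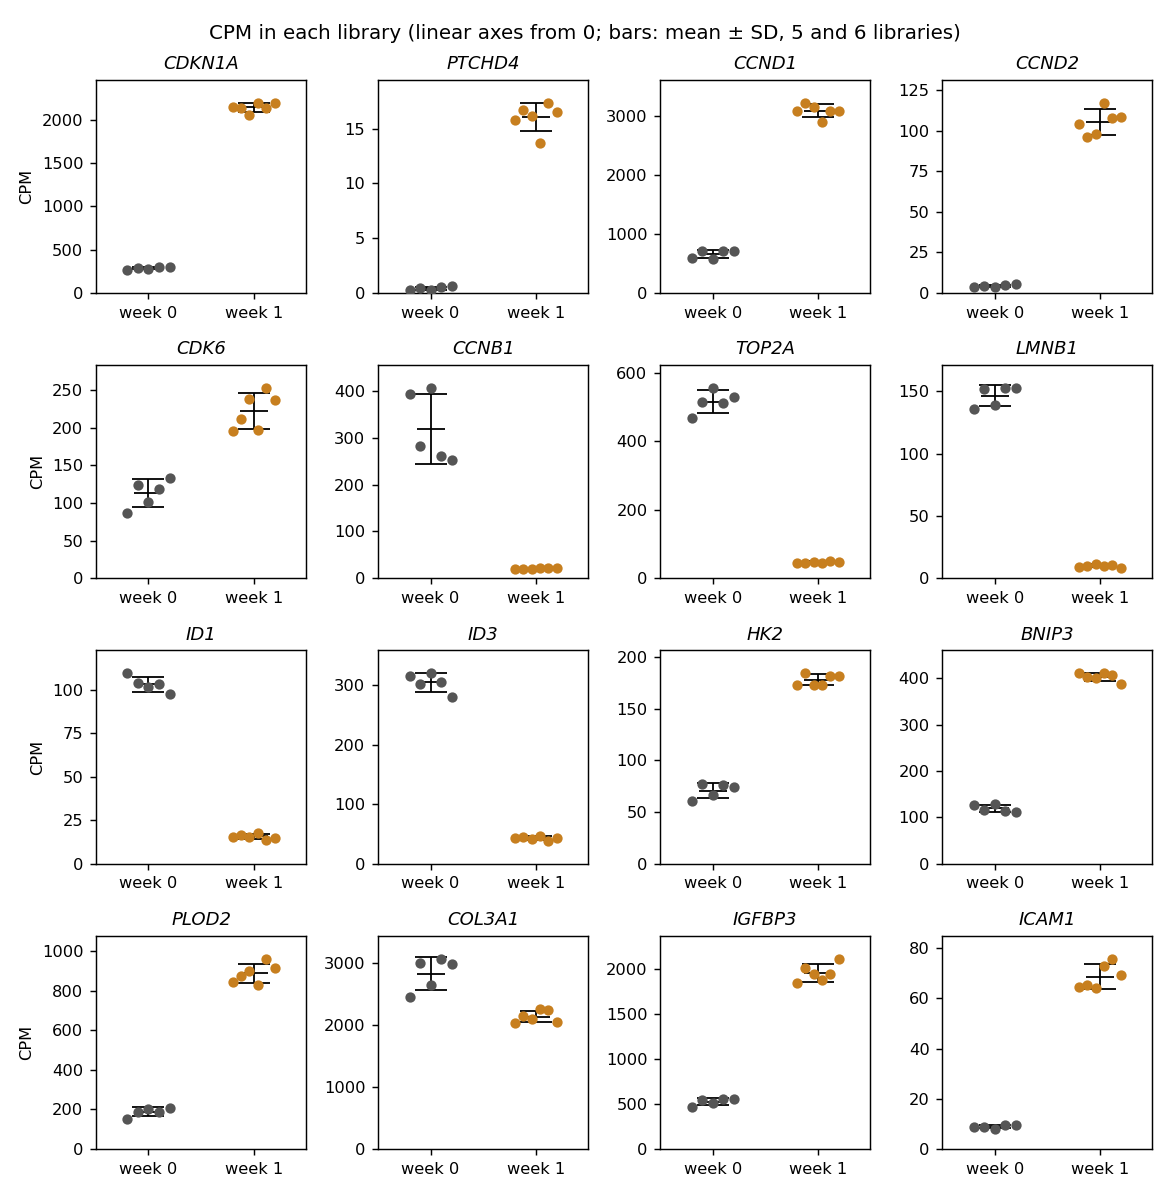
CPM of 16 genes in each library at week 0 (grey, 5 libraries) and week 1 (orange, 6 libraries), on linear axes that start at 0, with mean and SD. In every panel the 2 groups lie apart, the treated libraries above in CDKN1A, PTCHD4, CCND1, CCND2, CDK6, HK2, BNIP3, PLOD2, IGFBP3 and ICAM1 and below in CCNB1, TOP2A, LMNB1, ID1, ID3 and COL3A1.

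Genes that load the helicase and copy DNA fell without exception among those listed. All 35 members of the licensing and replication fork list were called down with no overlap between the groups, 33 of them more than 2-fold (median -2.19). The primase subunit PRIM1 fell from 8.81 ± 1.34 to 0.699 ± 0.130 CPM and the helicase loader CDC6 from 61.0 ± 4.95 to 10.02 ± 0.352 CPM. RPA1, the single-strand binding subunit that also serves repair, changed least, from 123 ± 5.36 to 81.0 ± 1.95 CPM. Of 23 nucleotide supply genes 21 fell. TK1, the thymidine kinase of dividing cells, fell from 137 to 15.1 CPM, and the falls of GART (84.4 to 60.2 CPM) and PAICS (255 to 171 CPM), enzymes of de novo purine synthesis, were shallower.

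Mitotic genes had the lowest median of all lists. All 44 tested genes of the spindle, kinetochore and cytokinesis fell, all by more than 2-fold and with no overlap (median -3.32). PLK1, the kinase of mitotic entry, was 165, 174, 157, 168 and 165 CPM at week 0 and 9.95 to 12.2 (median 10.6) at week 1. CDC20, which activates the anaphase-promoting complex, fell from 229.9 ± 11.6 to 11.8 ± 0.953 CPM and the kinesin KIF20A from 233 ± 8.22 to 11.9 ± 0.588 CPM. The pseudogene CDC20P1 was counted separately and fell from 6.16 to 0.357 CPM, and the split of reads between it and CDC20 is uncertain. The smallest falls were those of ECT2 (112 to 29.0 CPM), which activates RhoA at the cleavage furrow, and INCENP (87.2 to 20.1 CPM). Of 20 cohesin and condensin genes 18 fell. Condensin subunits such as NCAPH (58.5 to 4.94 CPM) and NCAPG (96.8 to 11.6 CPM) fell further than the cohesin ring subunits SMC3 (111 to 49.8 CPM) and SMC1A (247 to 121 CPM).

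Promoters of the mitotic genes share short elements that the lists did not use. The CHR element, TTTGAA or TTCGAA, and the CCAAT box, the site of the factor NF-Y, were searched on both strands with overlaps allowed. CCNB2, PLK1 and CDC20 are shown because each has both elements within a short distance before the start. Cyclin B2 (CCNB2) fell 14.9-fold, PLK1 15.4-fold and CDC20 19.4-fold. The stretches are the last 130 bases before the start in build GRCh38.p14, plus strand, 5′ to 3′, with the elements in capitals, at chr15:59105016-59105145, chr16:23678759-23678888 and chr1:43358851-43358980:
CCNB2: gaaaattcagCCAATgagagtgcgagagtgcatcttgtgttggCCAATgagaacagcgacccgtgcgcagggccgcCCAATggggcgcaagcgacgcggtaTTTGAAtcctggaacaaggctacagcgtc
PLK1: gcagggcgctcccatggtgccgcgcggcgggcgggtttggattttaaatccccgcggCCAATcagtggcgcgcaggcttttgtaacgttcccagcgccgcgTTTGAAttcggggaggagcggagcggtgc
CDC20: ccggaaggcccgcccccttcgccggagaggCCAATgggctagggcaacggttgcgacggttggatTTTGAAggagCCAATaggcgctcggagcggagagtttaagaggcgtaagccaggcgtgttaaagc
Either form of the CHR was present in 29 of 37 spindle and cytokinesis genes with a window (78.4%), against 16% of all tested genes with a window. The share was 38.7% in genes called down more than 4-fold and 19.3% in those called up more than 4-fold. A CHR and a CCAAT box in the same window were found in 64.9% of the spindle list and 6.5% of all.

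Replication genes carried a different element. The E2F core TTTNNCGC was in 19 of 29 licensing and fork genes (65.5%), in 13.5% of the spindle genes and in 12.1% of all, while either CHR was in 1 of the 29. These shares describe which letters lie in the windows. A match was also found in genes that did not fall: among genes that were not called, 14.2% had a CHR and 11% an E2F core.

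**Figure D3:**
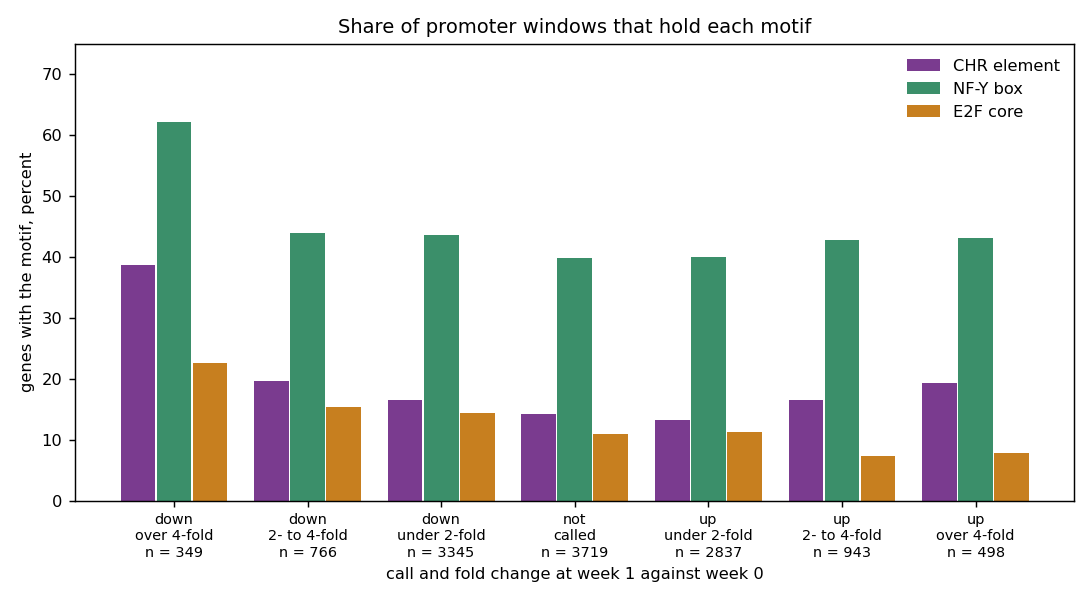
Share of genes whose promoter window holds a CHR element, an NF-Y box (the CCAAT box) or an E2F core, in percent from 0, by call and fold change, with the number of genes under each class. The CHR share was 38.7% in the class down over 4-fold and 13.3% to 19.6% in the other 6 classes, and the E2F share went from 22.6% in that class to 7.8% in the class up over 4-fold.

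The targets of etoposide differed in their own response. TOP2A, the topoisomerase of dividing cells, was 466, 515, 555, 512 and 529 CPM at week 0 and 43.6 to 50.4 (median 45.8) at week 1, an 11.1-fold fall. TOP2B, the form that non-dividing cells also express, fell from 161 ± 20.6 to 121 ± 4.64 CPM, 1.33-fold (adjusted p = 4.2e-06). Both tyrosyl-DNA phosphodiesterases, which clear trapped topoisomerases from DNA ends, fell: TDP1 from 35.8 to 20.6 CPM and TDP2 from 40.7 to 27.9 CPM.

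Genes of homologous recombination, a repair that uses the sister chromatid, fell as a block. All 26 listed genes of it and of the Fanconi pathway fell (median -2.34), among them BRCA1 (40.1 to 7.91 CPM). Genes of break sensing and end joining moved less, with 22 of 31 down, 3 up and a median of -0.68. The checkpoint kinases CHEK1 (43.9 to 9.02 CPM) and CHEK2 (15.1 to 6.16 CPM) and the histone H2AX (100.4 to 17.7 CPM) fell, and the Ku subunits XRCC5 (562 to 338 CPM) and XRCC6 (555 to 335 CPM) fell by similar amounts. ATM rose from 31.1 ± 2.51 to 46.7 ± 5.63 CPM, while LIG4 and XRCC4, which join ends, were not called (adjusted p = 0.17 and 0.71). In excision repair ERCC6, which frees stalled RNA polymerase, rose from 10.1 to 31.5 CPM, and the glycosylase NEIL3 fell from 15.6 to 1.36 CPM.

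Chromatin and nuclear envelope genes fell selectively. LMNB1, lamin B1, was 136, 152, 139, 153 and 153 CPM at week 0 and 8.31 to 11.4 (median 9.71) at week 1. LMNB2 fell from 411 ± 39.0 to 120.1 ± 4.23 CPM and the lamina partners TMPO and LBR from 158 to 18.5 CPM and 68.5 to 19.8 CPM, whereas LMNA, the A-type lamin gene, went from 908 ± 52.8 to 854 ± 37.0 CPM and was not called (edgeR adjusted p = 0.14). Without week 0 replicates 1 and 4 LMNA was called down by a small amount (log2 fold change -0.148, edgeR adjusted p = 0.011). SYNE1, a giant linker of nucleus and cytoskeleton, rose from 64.6 to 130.2 CPM. Among high mobility group proteins HMGB2 fell from 167 to 17.4 CPM and HMGN2 from 315 to 64.5 CPM, HMGA1 was 1398 to 1441 CPM and not called, and HMGA2 rose from 171 ± 17.2 to 475 ± 19.3 CPM.

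Of 30 polycomb, heterochromatin and DNA methylation genes 25 fell and 4 rose. The polycomb methyltransferase EZH2 fell from 53.4 ± 2.82 to 7.37 ± 0.855 CPM and its paralogue EZH1 rose from 18.1 ± 2.08 to 39.1 ± 1.17 CPM. The maintenance methyltransferase DNMT1 fell from 263 to 88.2 CPM and its cofactor UHRF1 from 143 to 20.2 CPM. Histone variants and chaperones fell in 20 of 25 cases, with H2AZ1 at 293 to 53.7 CPM and the CAF-1 subunit CHAF1B at 28.4 to 4.93 CPM. ATRX, a remodeller of heterochromatin, rose from 68.9 to 97.2 CPM. HDAC9, a class IIa histone deacetylase, rose from 0.874 ± 0.177 to 18.2 ± 1.81 CPM, while its relative HDAC4 fell from 34.1 to 13.1 CPM. The abundant class I enzymes HDAC1 (137 to 90.3 CPM) and HDAC2 (167 to 108 CPM) and the sirtuin SIRT1 (30.9 to 19.5 CPM) fell, SIRT2 rose from 36.8 to 58.5 CPM and SIRT6 was not called (16.3 to 17.1 CPM). At telomeres the shelterin subunit POT1 (21.9 to 11.1 CPM) and the telomerase RNA-binding dyskerin (DKC1, 98.4 to 53.6 CPM) fell, TERF2IP (RAP1) rose from 43.4 to 69.7 CPM and TERF2 was not called (30.2 to 28.6 CPM).

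Histone genes of the replication-dependent clusters moved against the replication genes. Of 19 tested, 14 rose and 4 fell (median 2.06). H2AC6, which encodes a core H2A, rose from 10.6 ± 3.07 to 90.9 ± 3.35 CPM, H2BC12 rose 8.73-fold, while H2BC9 fell from 2.003 to 0.342 CPM. These genes have near-identical copies, so the split of reads among them is uncertain. The list was compiled from members known to give polyadenylated transcripts in non-dividing cells, with earlier results of these data known, and it is no independent evidence of a direction.

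Genes of RNA handling and protein synthesis fell, many of them by less than 2-fold. Of 37 splicing factors 34 fell and none rose (median -0.92). HNRNPA2B1 fell from 1020.2 ± 65.1 to 407 ± 11.3 CPM, SRSF3 from 287 ± 46.4 to 109 ± 1.80 CPM and SRSF7 from 165 ± 43.6 to 52.2 ± 1.398 CPM. Nucleoporins and transport factors fell in 32 of 37 cases, with the importin KPNA2 from 516 to 116 CPM furthest. Ribosome biogenesis genes fell in 28 of 35 cases (median -0.46), mitochondrial ribosomal proteins in 63 of 72 (median -0.53) and proteasome subunits in 25 of 37, with 4 up (median -0.28). Without week 0 replicates 1 and 4, which had the highest levels of both the mitochondrial ribosome and the proteasome list, the mitochondrial ribosomal proteins numbered 50 down (median -0.35) and the proteasome subunits 21 down and 7 up (median -0.17).

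Of the aminoacyl-tRNA synthetases 4 rose, 4 fell and 11 of 19 were not called (median -0.01), with 8 up under upper-quartile scaling. EPRS1 rose from 255 to 398 CPM. In the unfolded protein and integrated stress list 17 of 30 rose and 8 fell. The pseudokinase TRIB3 rose from 22.5 to 55.6 CPM and the proapoptotic factor DDIT3 (CHOP) from 9.58 to 20.0 CPM.

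Glycolysis genes rose together. Of 28 genes of glucose uptake, glycolysis and lactate export, 24 rose and 3 fell (median 0.83). HK2, the inducible hexokinase, was 60.6, 76.7, 65.9, 75.6 and 74.5 CPM at week 0 and 173 to 184 (median 177) at week 1. PFKFB4, which makes an activator of phosphofructokinase, rose from 11.3 ± 1.28 to 66.2 ± 2.09 CPM, the transporter SLC2A3 (GLUT3) from 57.8 ± 5.17 to 144 ± 4.51 CPM and GAPDH from 3327 ± 162 to 6651 ± 175 CPM. ENO1 was 2479 ± 129 to 2478 ± 83.4 CPM (adjusted p = 0.99) while its isoenzyme ENO2 rose 3.60-fold. PDK4, a brake on pyruvate oxidation, fell from 4.95 to 1.11 CPM, and its relatives PDK1 and PDK3 rose from 63.4 to 147 CPM and 5.09 to 10.1 CPM.

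Targets of the hypoxia-inducible factors outside glycolysis rose in 18 of 23 cases, 12 of them more than 2-fold (median 1.07). The mitophagy receptor BNIP3 was 126, 116, 129, 114 and 111 CPM at week 0 and 389 to 411 (median 405) at week 1. NDRG1, a stress-responsive gene, rose from 109 ± 6.29 to 409.7 ± 8.83 CPM and the carbonic anhydrases CA9 and CA12 from 1.17 to 9.68 CPM and 19.5 to 52.7 CPM. HIF1A, which encodes the main factor, went from 468 ± 41.3 to 501 ± 20.5 CPM and was not called (edgeR adjusted p = 0.12), although it was with upper-quartile scaling (log2 fold change 0.168, edgeR adjusted p = 0.0069) and with the tables without lengths alone (log2 fold change 0.165, edgeR adjusted p = 0.035). The factor is controlled chiefly through the stability of its protein, which was not measured.

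Catabolic membranes gained transcripts. Of 39 autophagy genes 27 rose and 5 fell (median 0.41). The cargo receptors OPTN (66.0 to 226 CPM), SQSTM1 (p62, 178 to 423 CPM) and NBR1 (117 to 221 CPM) and the ubiquitin-like MAP1LC3B (93.4 to 205 CPM) rose, while ATG5, which conjugates it, fell from 37.4 to 22.8 CPM. The proton pump of the lysosome rose in 12 of 17 genes, with ATP6V0A1 (30.9 to 78.3 CPM) the largest rise. The proteases CTSD and CTSB rose from 53.4 to 129 CPM and 944 to 1799 CPM, CTSL fell from 112 to 87.8 CPM, and CTSK was not called (9.68 to 8.64 CPM). Both ferritin chains rose, FTH1 from 252 ± 14.3 to 537 ± 45.4 CPM and FTL from 1776 ± 197 to 3503 ± 206 CPM, together with the transferrin receptor TFRC (286 to 432 CPM), which iron-replete cells usually hold low. Among NRF2 targets and redox genes 8 rose and 11 fell of 27, and 13 rose and 11 fell without week 0 replicates 1 and 4. SOD2 rose from 110.2 to 323 CPM, and NQO1, a standard NRF2 target, fell from 257 to 88.3 CPM.

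Lipid genes rose more often than not, 17 up and 3 down of 22. The desaturases SCD (98.4 to 186 CPM) and SCD5 (13.1 to 52.97 CPM) rose, and CPT1A, which carries fatty acids into mitochondria for oxidation, fell from 150.1 to 71.0 CPM. In polyamine metabolism the synthetic enzymes ODC1 (191 to 116 CPM) and AMD1 (116 to 53.9 CPM) fell and the catabolic SAT1 rose from 17.5 to 40.4 CPM. In folate and serine metabolism SHMT1 fell from 14.1 to 3.25 CPM and PHGDH, the entry to serine synthesis, from 193 to 81.9 CPM.

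**Figure D4:**
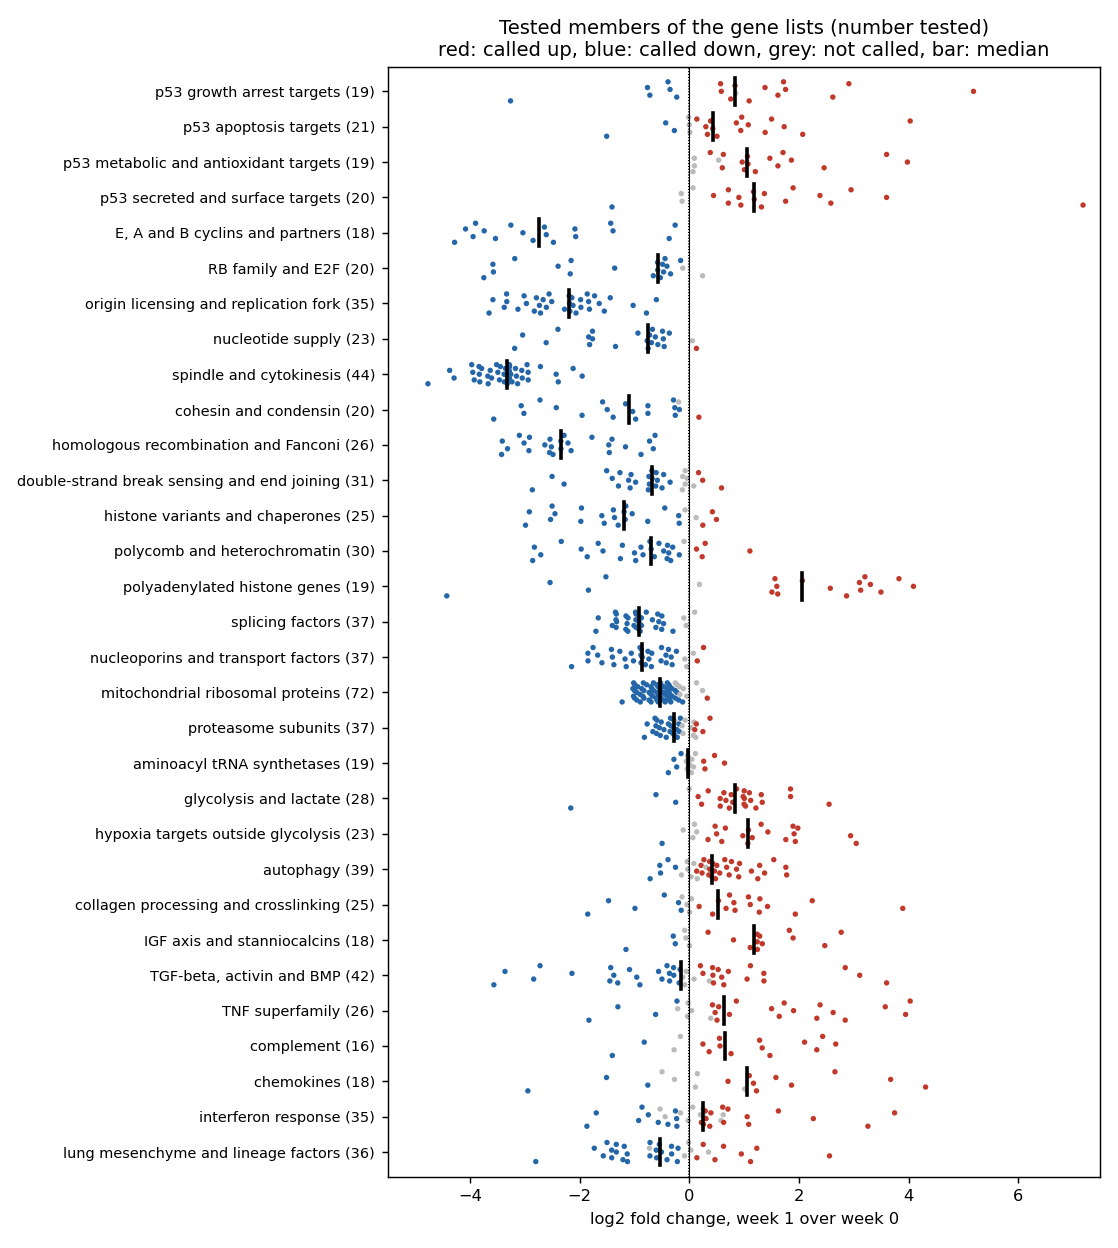
Log2 fold change (week 1 over week 0) of each tested member of 31 gene lists, with the number tested in brackets, points coloured by call and a black bar at the list median. Members of the spindle list and of the licensing and replication fork list all lie left of 0, and glycolysis and hypoxia members mostly right of it. The TGF-beta list spreads from -3.56 (ID4) to 3.60 (GDF15).

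The matrix changed its make-up. FN1, fibronectin, rose from 11622 ± 1595 to 36589 ± 2447 CPM, the largest gain in CPM of any gene. Of the chains of type I collagen COL1A2 rose 1.98-fold and COL1A1 1.20-fold, and COL3A1, the chain of type III collagen, was 2459, 2997, 2649, 3074 and 2985 CPM at week 0 and 2034 to 2253 (median 2117) at week 1, a fall. COL11A1 rose from 7.39 ± 1.38 to 54.1 ± 5.61 CPM and COL5A3 fell from 28.9 ± 2.76 to 9.22 ± 1.01 CPM, so fibrillar chains split 6 up and 4 down of 10. In basement membrane the type IV chains COL4A1 (2488 to 1749 CPM) and COL4A2 (2839 to 2193 CPM) fell, and the proteoglycan HSPG2 (perlecan) rose from 367 to 1038 CPM.

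Collagen-modifying enzymes rose in 15 of 25 cases and fell in 6. PLOD2, the lysyl hydroxylase of stable crosslinks, was 149, 189, 203, 187 and 209 CPM at week 0 and 831 to 963 (median 887) at week 1. LOXL4, a lysyl oxidase, rose from 6.21 ± 0.445 to 92.4 ± 4.56 CPM, LOX from 571 ± 44.4 to 2182 ± 107 CPM and LOXL2 from 879 ± 75.8 to 2132 ± 42.6 CPM. The collagen chaperone SERPINH1 fell from 1109 to 809 CPM and the procollagen C-proteinase enhancer PCOLCE from 174 to 62.8 CPM. Elastic fibre genes were mixed, 6 up and 8 down of 17, with elastin (ELN) down from 332 to 159 CPM and LTBP3, a latent TGF-beta binder, up from 74.0 to 207 CPM.

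Adhesion receptors rose in 12 of 19 integrin genes. ITGB1, the common beta subunit, rose from 2872 ± 174 to 4624 ± 165 CPM, the laminin receptor subunit ITGA7 from 6.54 to 38.9 CPM and the collagen receptor subunit ITGA11 from 81.4 to 206 CPM, while ITGA1 fell from 248 to 161 CPM. Among proteases ADAMTS12 rose from 28.1 ± 4.04 to 172 ± 13.7 CPM and ADAMTS5, an aggrecanase, fell from 28.8 to 8.65 CPM. In the plasminogen system the activator PLAT rose from 557 to 1258 CPM and PLAU fell from 896 to 512 CPM, its receptor PLAUR was 157 to 158 CPM and not called, and the inhibitors SERPINB2 and SERPINE2 rose from 3.003 to 31.2 CPM and 166 to 383 CPM.

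Matricellular proteins, which sit in the matrix and modulate cells rather than bear load, rose in 12 of 19 cases and fell in 5. SPARC rose from 2412 ± 151 to 4737 ± 97.8 CPM, THBS2 from 79.3 ± 8.93 to 211 ± 14.6 CPM and CCN4 from 7.52 to 27.4 CPM, while TNC fell from 2002 ± 249.0 to 1124 ± 74.0 CPM, POSTN (periostin) from 404 to 228 CPM and SMOC1, a BMP-binding protein, from 51.9 to 9.73 CPM. TIMP1, an inhibitor of matrix metalloproteinases, rose from 1379 ± 57.1 to 3731 ± 185 CPM. The hyaluronan depolymerase CEMIP rose from 469 ± 63.2 to 1170.1 ± 70.2 CPM and the hyaluronan receptor CD44 from 1800.5 ± 111 to 2514 ± 40.0 CPM, the synthase HAS2 was not called (39.8 to 37.5 CPM) and TNFAIP6, which links hyaluronan to inter-alpha-inhibitor, fell from 8.51 to 0.973 CPM. In that list 8 of 13 rose, 5 with the tables with lengths alone, and the mitotic HMMR was among the 3 that fell. Type VI collagen chains split. COL6A1 (2757 to 4526 CPM) and COL6A2 (2457 to 3766 CPM) rose. The more abundant COL6A3 fell from 6586 to 5736 CPM, with overlap between the groups (edgeR adjusted p = 0.017). COL14A1 fell from 93.9 to 38.03 CPM.

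Among secreted signals the IGF axis had 12 of 18 genes up and 3 down (median 1.18). All 6 IGF-binding proteins above 1 CPM rose, IGFBP2 furthest, from 39.5 ± 2.88 to 269.7 ± 8.83 CPM. PAPPA, the protease that cuts IGFBP4 and frees IGF, rose from 111 ± 19.7 to 394 ± 50.6 CPM, and its inhibitors STC1 and STC2 rose too, from 108 to 233 CPM and 393 to 929.9 CPM. The receptor IGF1R fell from 92.9 to 75.9 CPM, and IGF2 was 18.9 to 18.1 CPM and not called.

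In the TGF-beta and BMP list 16 rose and 21 fell of 42. The direct targets of BMP signalling ID1 to ID4 all fell. ID1 was 109.7, 104, 102, 103.5 and 97.9 CPM at week 0 and 13.5 to 17.9 (median 15.5) at week 1, ID3 fell from 305 ± 15.6 to 42.7 ± 3.24 CPM and ID4 from 11.95 ± 1.07 to 1.01 ± 0.286 CPM. The feedback inhibitors SMAD6 and SMAD7 fell from 30.4 to 6.90 CPM and 48.8 to 18.8 CPM. The secreted antagonist follistatin (FST) fell from 509 ± 21.4 to 187 ± 1.20 CPM. The ligand GDF5 rose from 1.23 to 10.6 CPM, and the receptor TGFBR2 rose from 162 to 417 CPM while TGFBR1 fell from 121 to 65.0 CPM.

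Other pathways had members in both directions. In the Notch list 5 rose and 5 fell of 15. The targets HES1 (4.98 to 0.867 CPM) and HEY1 (6.70 to 1.03 CPM) and the ligand DLL4 (27.1 to 2.07 CPM) fell, the ligand JAG2 rose from 0.154 to 3.81 CPM and NOTCH1 was not called (42.5 to 44.6 CPM). Of the EGF family 8 rose and 2 fell of 11, with 5 up in the tables with lengths alone. AREG fell from 21.8 ± 3.31 to 0.809 ± 0.266 CPM and EREG from 6.66 to 1.31 CPM, and NRG1 and HBEGF rose from 9.75 to 36.0 CPM and 14.04 to 26.96 CPM. The Wnt antagonists SFRP1 (363 to 1224 CPM) and DKK3 (525 to 1248 CPM) rose and DKK1 fell from 168 to 42.5 CPM, in a list of 36 with 10 up and 15 down. HGF fell from 179 to 47.5 CPM, PDGFRA from 359 to 171 CPM, and KIT, the receptor of stem cell factor, rose from 6.59 to 26.2 CPM while its ligand KITLG fell from 82.8 to 44.9 CPM. The immediate early genes NR4A1 (22.4 to 3.04 CPM) and FOSL1 (293 to 168 CPM) fell and JUN (88.0 to 195 CPM) and MYC (44.5 to 82.0 CPM) rose, in a list of 28 with 13 up and 13 down.

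Angiogenic and growth factor genes went both ways. VEGFA rose from 127 ± 14.5 to 249.5 ± 10.4 CPM and ANGPTL4, a lipase inhibitor also induced by hypoxia, from 29.9 ± 1.51 to 124 ± 6.34 CPM, the VEGF receptor FLT1 rose from 13.1 to 29.8 CPM and KDR fell from 4.36 to 0.239 CPM. FGF2 rose from 60.7 to 94.7 CPM and FGF7 (keratinocyte growth factor) fell from 127 to 81.9 CPM. Feedback inhibitors of ERK signalling went both ways, 8 up and 8 down of 19, with 5 down in the tables without lengths alone. The ERK phosphatases DUSP6 (17.2 ± 2.27 to 56.7 ± 3.62 CPM) and DUSP5 (22.2 ± 2.25 to 60.7 ± 1.32 CPM) rose and the ETS factor ETV1 fell from 39.5 to 18.6 CPM.

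Targets of YAP and TEAD, the effectors of the Hippo pathway, were 9 up and 12 down of 26 (6 down in the tables without lengths alone). ANKRD1 rose from 10.8 to 40.9 CPM and CCN1 (CYR61) from 503 to 678 CPM, whereas CCN2 (CTGF), a target of the same factors, fell from 981 to 760.2 CPM. Of the factors themselves TEAD2 (81.9 to 27.8 CPM) and TEAD1 (398 to 278 CPM) fell.

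Inflammatory genes changed in both directions. Of 18 tested chemokines 10 rose and 3 fell, but only CCL2 (18.97 to 56.7 CPM) and CXCL8 (6.08 to 9.92 CPM) of those that rose passed 5 CPM at week 1, and CXCL12 fell from 78.5 to 10.2 CPM. IL32, a cytokine gene, rose from 4.32 ± 0.263 to 83.2 ± 4.03 CPM and IL6 from 6.80 ± 1.24 to 27.6 ± 2.69 CPM, whereas IL11 fell from 140.0 ± 3.68 to 26.9 ± 1.02 CPM. Of the IL-1 family and inflammasome list 4 rose and 6 fell of 14. IL1A was 0.531 to 2.75 CPM, and the inflammasome protease CASP1 fell from 27.2 to 10.1 CPM. Cytosolic DNA sensing genes fell in 8 of 11 cases, including CGAS (7.38 to 2.50 CPM) and STING1 (56.7 to 41.5 CPM). Interferon-response genes were 15 up and 10 down of 35, with IFIT2 up from 1.52 to 7.28 CPM, TRIM22, also a p53 target, up from 23.1 to 71.2 CPM and OAS3 down from 21.7 to 5.93 CPM. With the tables with lengths alone 6 interferon-response genes fell. HLA-B, the class I gene that could be read, rose from 27.9 ± 1.05 to 78.0 ± 6.67 CPM, and the class I activator NLRC5 fell from 16.7 to 9.35 CPM. B2M, the light chain, was 103.2, 57.3, 85.1, 47.9 and 45.9 CPM at week 0 and 65.0 to 70.8 (median 66.8) at week 1 and was not called. It was called up without week 0 replicates 1 and 4 (log2 fold change 0.414, edgeR adjusted p = 7.7e-07) and down with the tables without lengths alone (log2 fold change -0.273, edgeR adjusted p = 0.046).

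Receptors and enzymes of local mediators changed as well. The prostaglandin receptors PTGER4 (3.52 to 9.25 CPM) and PTGIR (1.45 to 6.36 CPM) and the phospholipase PLA2G4C (1.85 to 10.8 CPM) rose, and PTGER2 fell from 87.0 ± 10.4 to 46.4 ± 1.252 CPM. In the IL-6 family 10 of 20 genes rose and 8 fell. LIF rose from 113 to 185 CPM, the shared receptor IL6ST (gp130) from 604 to 759 CPM and STAT3 from 159 to 251 CPM, and the feedback inhibitor SOCS3 fell from 47.3 ± 3.55 to 17.9 ± 1.34 CPM.

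Complement genes rose in 12 of 16 cases and fell in 2. SERPING1, the inhibitor of the C1 complex, rose from 37.6 ± 3.52 to 203 ± 4.40 CPM, C3 from 55.2 to 93.7 CPM and the chaperone clusterin (CLU) from 232 to 644 CPM, while the decay-accelerating CD55 fell from 34.3 to 19.4 CPM. TNF superfamily genes rose in 17 of 26 cases, TNFSF4 (OX40 ligand) from 17.2 to 86.4 CPM and EDA2R from 12.9 to 40.1 CPM, and the decoy TNFRSF11B (osteoprotegerin) fell from 309.9 to 126 CPM. Of ligands for natural killer cell receptors PVR (132 to 319 CPM), ULBP1 (2.19 to 5.88 CPM) and ULBP2 (5.82 to 10.6 CPM) rose and ULBP3 fell from 15.8 to 11.1 CPM. The checkpoint ligands went opposite ways: PDCD1LG2 (PD-L2) rose from 27.7 ± 1.28 to 56.7 ± 2.40 CPM and CD274 (PD-L1) fell from 27.4 ± 1.78 to 18.5 ± 1.15 CPM.

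Most immunoglobulin-type adhesion genes rose. ICAM1, the leukocyte ligand, was 8.82, 8.62, 8.06, 9.42 and 9.47 CPM at week 0 and 64.2 to 75.9 (median 67.3) at week 1. VCAM1 rose from 45.4 ± 5.12 to 219 ± 14.3 CPM and L1CAM, a neural adhesion molecule, from 0.802 ± 0.268 to 15.6 ± 0.839 CPM, while its relative CHL1 fell from 20.2 to 7.19 CPM and MCAM from 398 ± 19.6 to 155 ± 3.32 CPM. In all 16 of 23 immunoglobulin-type adhesion genes rose and 5 fell (median 0.91). Tetraspanin and caveola genes rose in 16 of 20 cases, CD82 from 52.2 to 130.1 CPM and CD9 from 66.5 to 122 CPM. Potassium channels rose in 16 of 31 cases, most of them below 5 CPM, with KCNMA1 (40.9 to 99.2 CPM) the highest, and fell in 6 (3 with the tables with lengths alone).

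Some genes of simple epithelia rose and others fell. KRT18 went from 45.7 ± 1.96 to 192 ± 13.4 CPM, KRT8 from 14.4 ± 1.121 to 43.4 ± 1.86 CPM, KRT19 from 1.72 ± 0.310 to 24.5 ± 0.915 CPM and the tight-junction gene CLDN1 from 9.56 ± 1.21 to 155 ± 6.10 CPM, while KRT7 fell from 1.53 to 0.997 CPM, CLDN4 from 4.79 to 3.37 CPM and CLDN7 from 0.328 to 0.166 CPM. The calls of KRT7 (log2 fold change -0.565, edgeR adjusted p = 0.11) and CLDN7 (log2 fold change -0.512, edgeR adjusted p = 0.51) were lost with the tables with lengths alone, and that of CLDN7 also without week 0 replicate 4 (log2 fold change -0.815, edgeR adjusted p = 0.054). The sum of 13 epithelial markers was 68.8 ± 2.98 CPM (range 65.1 to 73.2) at week 0 and 265 ± 15.1 CPM (range 248 to 287) at week 1. The defining markers EPCAM and CDH1 were at 0.315 and 0.319 and 0.00400 and 0.181 CPM, near 0 in both groups, and KRT5, ESRP1 and SFTPC were at 0 in all week 0 libraries. Fewer cells of a type and less RNA per cell cannot be told apart in bulk samples. The sum of 16 fibroblast markers went from 57505 ± 5694 to 96863 ± 3273 CPM, with FN1 the largest gain. Its members PDGFRA, COL3A1, COL6A3, DCN (1465 to 1129.5 CPM) and S100A4 (4.61 to 2.27 CPM) fell, and PDGFRB was lower (335 to 291 CPM). With the tables with lengths alone DCN was not called (log2 fold change -0.107, edgeR adjusted p = 0.056) and the sign of S100A4 turned (log2 fold change 0.014, edgeR adjusted p = 0.96). The sums of 9 endothelial and 8 neural markers went from 93.7 ± 7.43 to 71.6 ± 1.30 CPM and from 11.95 ± 0.717 to 8.46 ± 0.990 CPM. Each of these sums, the epithelial one included, differed between the groups (exact two-sided permutation test, adjusted p = 0.0076, 14 comparisons). TEK made up most of the endothelial sum (83.6 to 59.6 CPM). KDR and TIE1 were lower too, while EGFL7 (2.52 to 7.70 CPM), VWF and PECAM1 were higher and the rest near 0. The neural sum was mostly MBP (7.11 to 4.15 CPM) and SNAP25 (4.37 to 3.77 CPM), with the others near 0. The sum of 9 smooth muscle and pericyte markers was 1649 ± 99.6 and 1652 ± 35.4 CPM (exact two-sided permutation test, p = 0.96), but its members moved apart, with MCAM down and NOTCH3 (91.8 to 177 CPM) and RGS5 (5.78 to 35.7 CPM) up. The part of these marker sums in other results was not tested.

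Surface proteins proposed elsewhere as marks of senescent cells rose in 15 of 22 cases and fell in 2 (median 0.67). The peptidase DPP4 rose from 40.2 ± 3.53 to 116 ± 2.27 CPM, APP from 686 ± 49.4 to 1180.2 ± 15.8 CPM and ARMCX3 from 52.6 to 112 CPM, AXL fell from 843 to 664 CPM, and GPNMB, a lysosomal glycoprotein, was low in both groups (0.563 to 1.24 CPM) although it rose.

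Cadherins and protocadherins rose in 22 of 33 cases, 14 with the tables with lengths alone, but several of the higher members fell. CDH13 rose from 45.7 ± 3.29 to 120.2 ± 6.03 CPM and CLSTN1 (calsyntenin) from 285 to 389.7 CPM, the mesenchymal CDH2 (N-cadherin) fell from 176 to 137 CPM, CDH6 from 311 ± 30.4 to 159.6 ± 10.8 CPM and PCDH18 from 177 ± 13.7 to 43.5 ± 3.10 CPM. Of the axon guidance genes, which also steer fibroblasts and vessels, 27 rose and 12 fell of 48. The semaphorins SEMA7A (47.1 ± 3.37 to 132 ± 3.92 CPM) and SEMA6D (11.1 to 47.0 CPM) and the receptor ROBO2 (10.3 to 32.9 CPM) rose, and SEMA3A fell from 307 ± 8.42 to 145 ± 6.77 CPM.

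The cytoskeleton showed no single direction. Of 30 contractile and actin-binding genes 10 rose and 13 fell (median -0.03). Filamin C (FLNC) rose from 1448 ± 192 to 3629 ± 71.5 CPM, and among tropomyosins TPM2 rose from 1772 to 2414 CPM and TPM4 fell from 2474 ± 106 to 1748 ± 17.9 CPM. ACTA2, the smooth muscle actin of myofibroblasts, fell from 492 ± 21.1 to 404 ± 21.8 CPM. Tubulins of proliferating cells fell, TUBA1B from 572 ± 48.7 to 255 ± 9.36 CPM and TUBB4B from 712 ± 29.6 to 357 ± 16.1 CPM, and TUBB2A (61.0 to 119 CPM) and TUBA4A (13.5 to 32.8 CPM) rose. Calcium entry genes included the channels TRPV2 (30.9 to 69.4 CPM) and PIEZO1 (260.4 to 348 CPM) and the store sensor STIM1 (44.4 to 71.4 CPM) among the rises and TRPC6 (15.4 to 6.00 CPM) among the falls, with 14 up and 9 down of 30.

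Transcription factors of lung mesenchyme fell. Of 36 lineage factors 23 fell and 8 rose, 5 with the tables with lengths alone (median -0.53). The fetal lung factors FOXF1 (247 ± 13.5 to 113 ± 2.95 CPM), TBX2 (235 ± 22.6 to 88.2 ± 6.07 CPM), TBX5 (63.9 to 29.3 CPM) and TCF21 (45.4 to 13.7 CPM) fell, as did the mesenchymal PRRX1 (78.9 to 27.9 CPM) and PRRX2 (56.0 to 8.05 CPM). SOX9 (49.8 to 96.2 CPM) and GATA6 (6.49 to 15.3 CPM) rose. FENDRR, the noncoding RNA that neighbours FOXF1, fell from 261 ± 18.3 to 82.6 ± 3.53 CPM. Within the HOX clusters HOXA3 (16.02 to 3.82 CPM) and HOXA5 (24.6 to 11.1 CPM) fell, HOXB5 rose from 26.2 to 49.9 CPM, and HOXB2, HOXB4 and HOXB6 were not called (adjusted p = 0.63, 0.68 and 0.93).

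Clock genes moved in both directions. The repressors BHLHE41 (1.31 to 8.89 CPM) and BHLHE40 (31.6 ± 1.67 to 66.3 ± 2.03 CPM) and the activator RORA (7.31 ± 1.49 to 29.7 ± 2.99 CPM) rose, BMAL1 (19.3 to 11.9 CPM), CRY1 (26.02 to 16.3 CPM) and PER3 (9.67 to 4.77 CPM) fell, in a list of 21 with 11 up and 6 down. The hour of harvest is not given in the sources used here. Among long noncoding RNAs NEAT1, the scaffold of paraspeckles, rose from 80.8 ± 29.9 to 173 ± 28.8 CPM, NORAD, which is induced by DNA damage, from 230.2 ± 29.7 to 431 ± 17.3 CPM and the imprinted MEG3 from 296 ± 81.7 to 439 ± 55.1 CPM. Hosts of small nucleolar and micro RNAs fell in 17 of 29 cases and rose in 6, with SNHG3 (38.1 ± 7.75 to 10.9 ± 0.957 CPM) and SNHG1 (73.7 ± 17.2 to 26.4 ± 2.35 CPM) among the falls and MIR34AHG, the host of a microRNA induced by p53, rising from 4.84 to 8.45 CPM. GAS5 was 256, 127, 198, 115 and 108 CPM at week 0 and 120.4 to 139 (median 123) at week 1 and was not called (edgeR adjusted p = 0.055). Week 0 replicates 1 and 4 were the highest, and GAS5 was called up with the tables with lengths alone (log2 fold change 0.216, edgeR adjusted p = 0.0059) and down with the tables without (log2 fold change -0.625, edgeR adjusted p = 3.4e-04), with no filter on low counts (log2 fold change -0.345, edgeR adjusted p = 0.029) and without week 0 replicate 3, 5 or 6.

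Among genes with at least 5 CPM in the higher group and no overlap, the steepest rise was that of TMEM178B, a membrane protein gene, at 0.461, 0.543, 0.393, 0.153 and 0.388 CPM at week 0 and 12.7 to 18.9 (median 15.9) at week 1. CPA4, a carboxypeptidase, rose from 26.3 ± 1.43 to 547 ± 14.3 CPM, the small GTPase RRAD from 0.855 to 14.8 CPM, the mineralocorticoid receptor NR3C2 from 1.11 to 15.4 CPM, the oxytocin receptor OXTR from 8.75 ± 0.778 to 121 ± 5.34 CPM, the calcification inhibitor MGP from 1.15 to 14.7 CPM and the pregnancy glycoprotein gene PSG1 from 0.988 to 12.8 CPM. The largest fall among such genes was that of EDNRB, the endothelin B receptor, at 7.92, 9.06, 9.88, 8.96 and 9.95 CPM at week 0 and 0.182 to 0.535 (median 0.241) at week 1. The cardiac actin ACTC1 fell from 11.99 ± 1.07 to 0.436 ± 0.235 CPM and the thymosin TMSB15A from 12.3 to 0.627 CPM, while the abundant actins ACTB and ACTG1 fell 1.16-fold and 1.26-fold. Most of the other largest falls were mitotic genes, among them NEK2 (51.0 to 2.47 CPM) and CDKN3 (61.2 to 3.11 CPM). The other largest losses in CPM included the chaperone HSPA8 (2798 to 1857 CPM), the tropomyosin TPM4 and prothymosin (PTMA, 1037 to 353 CPM).

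**Figure D5:**
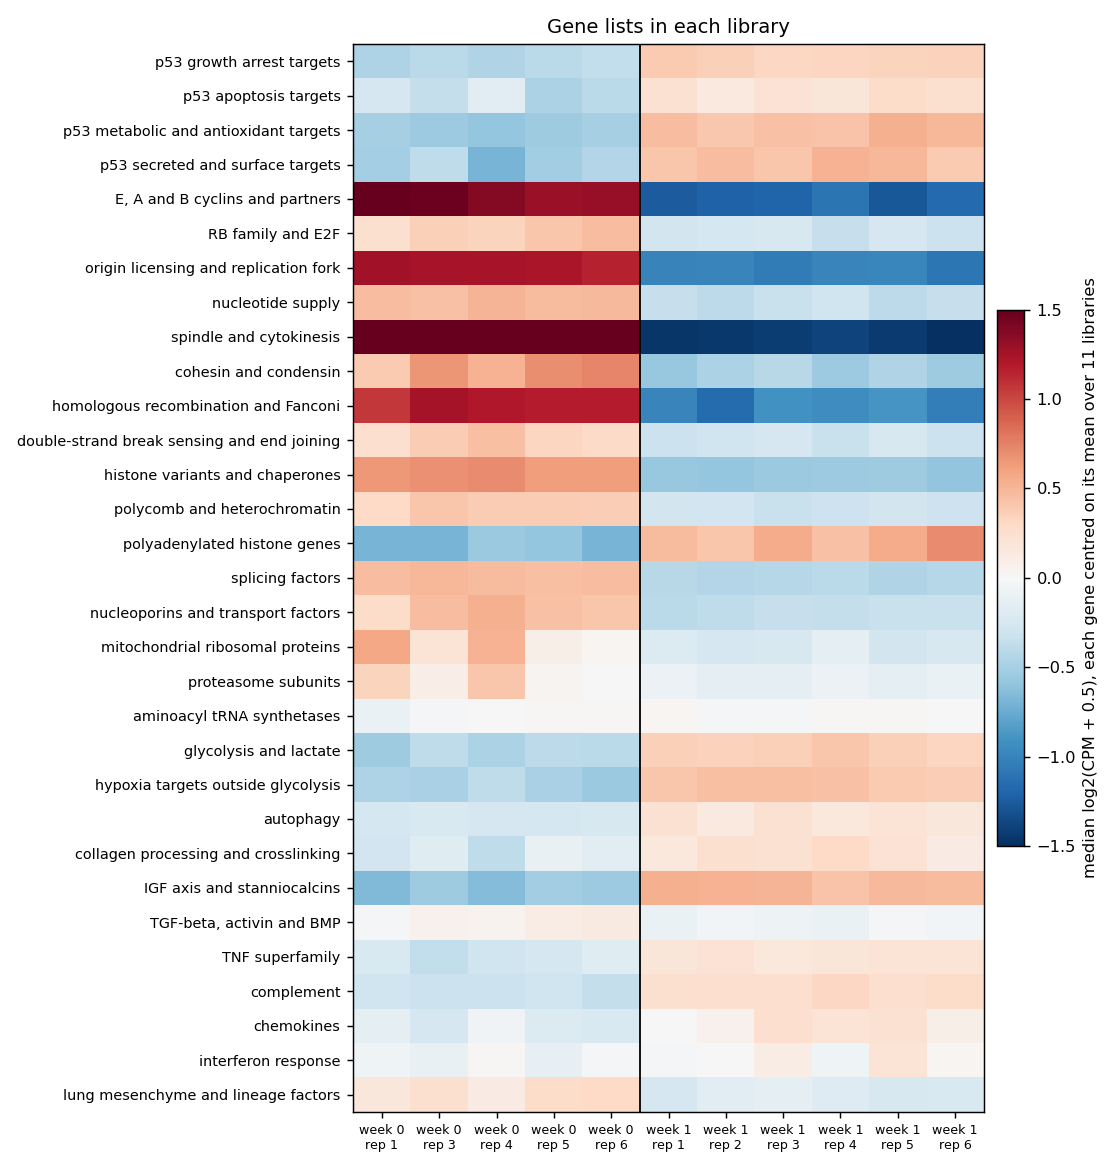
Median over the tested members of each of 31 gene lists in each of the 11 libraries, as log2(CPM + 0.5) of each gene centred on its mean over the libraries (red above, blue below). Columns within a group resemble each other, and the change of sign falls between week 0 replicate 6 and week 1 replicate 1 for the replication, spindle, glycolysis and hypoxia lists.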

How the data were processed

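Bulk RNA-seq of 5 untreated (week 0) and 6 etoposide-treated (week 1) IMR-90 libraries was analysed. The 6 week 4 libraries were included in the filter, the scaling and the spread. Without them 16261 genes were tested and 10777 called. The authors deposited raw counts per gene symbol for each library, made with HISAT2 2.0.5.2 and featureCounts 1.4.6, per the submitters' processing notes. These name the build mm10, a mouse genome, although the symbols are human, so the build is unclear here. The labels and headers name no annotation, strand setting or treatment of reads that fit several genes, so overlapping and near-identical genes may share counts. An entry with no name (0.221% to 0.289% of counts) was left out.

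Genes passing filterByExpr (16891 of 41040) were scaled by TMM and tested with edgeR 4.0.16 (R 4.3.3, quasi-likelihood, no covariates). Adjusted p-values are Benjamini-Hochberg, and the SE was taken as the log2 fold change over the square root of F. CPM use TMM-scaled library sizes. Depth of 77.2 to 96.0 M counts leaves the libraries, not counting error, as the limit for most genes (biological coefficient of variation 11.7%). On simulated data of 16069 genes, 98% of 2-fold and 50% of 1.25-fold changes were recovered. These changes were placed in a small set of genes above a floor of expected counts, and all other genes were left unchanged. In the data 66.9% of genes were called, so the adjusted p cutoff differs. The recovered shares therefore do not give the sensitivity of this comparison. Members and lists were chosen with earlier results of these data known. Genes were named from the 25 largest rises and falls (at least 5 CPM in the higher group, no overlap), the 10 largest gains and losses in CPM, called genes that went from under 0.5 to at least 5 CPM, the gene lists, TOP2A and TOP2B. Promoters are RefSeq windows (GRCh38.p14), matched by symbol. No 2 libraries agreed within counting noise. Alternatives were other scalings, filters and tools (DESeq2 1.42.0, limma 3.58.1), table formats and each library left out. A few genes are not reported here.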

Additional observations from a re-analysis of the deposited data

Results flagged for a closer look

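In 41 of 760 checks of the named genes and 4 measures of the libraries (5.4%), 1 library lay far from the rest of its group, that is, its gap to the nearest other exceeded Dixon's 95% critical share of the range. Chance gives such a gap in about 1 of 20 groups. Values are CPM, with the range of the group's other libraries after each, and no cause was tested.

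Week 0 replicate 1 stood apart in ATM (26.7 against 31.3 to 32.8), CD274 (24.2 against 27.8 to 28.6), CPT1A (132 against 151 to 158) and EPRS1 (222 against 257 to 269.6). It did so also in HMGN2 (445 against 244 to 298), ITGB1 (2571 against 2909.7 to 3021), PCDH18 (153 against 181 to 185) and PDGFRA (284 against 363 to 389). Further such genes were RPA1 (113 against 125 to 126), SNHG3 (51.6 against 31.9 to 37.4) and TNFRSF10D (122 against 140.5 to 148). Week 0 replicate 4 stood apart in BID (54.1 against 43.7 to 45.9), CTSL (123 against 108 to 110.4), LTBP3 (63.3 against 74.7 to 78.8) and MAP1LC3B (106 against 89.0 to 91.5). It did so also in SPARC (2677 against 2313 to 2379), TPM4 (2662 against 2413 to 2449) and XRCC5 (635 against 541 to 551). Week 0 replicate 6 stood apart in CDC20 (209.8 against 231 to 238) and CRY1 (23.8 against 26.2 to 27.1).

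Week 1 replicate 1 stood apart in COL4A1 (1568 against 1735 to 1818) and ITGA11 (193 against 206 to 213). Week 1 replicate 2 stood apart in CRY1 (17.5 against 15.9 to 16.3) and LTBP3 (224 against 198 to 206). Week 1 replicate 3 stood apart in BCL2L1 (76.1 against 85.7 to 88.8) and DKK3 (1213 against 1245 to 1261). Week 1 replicate 4 stood apart in CCND3 (76.95 against 73.1 to 73.4), NR3C2 (13.3 against 15.4 to 16.2), PCOLCE (68.5 against 60.2 to 63.0) and PHGDH (89.6 against 78.8 to 82.4). It did so also in RGS5 (31.0 against 35.9 to 37.4), SEMA6D (39.6 against 46.6 to 50.7), SERPINE2 (402 against 377 to 382) and TERF2IP (74.4 against 67.8 to 69.7). Further such genes were TIMP1 (4086 against 3537 to 3709) and TNFAIP6 (1.45 against 0.763 to 0.997). Week 1 replicate 5 stood apart in CLDN1 (167 against 149.8 to 156) and IL1A (3.71 against 2.40 to 2.74). Week 1 replicate 6 stood apart in ANKRD1 (45.4 against 38.6 to 40.9), CCN2 (798 against 745 to 760.4) and CDK2 (22.7 against 20.3 to 21.1).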

How the results depend on the processing

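The number of genes called stayed within 1.5 times of 11305 under RLE scaling (11296), upper-quartile scaling (11294), DESeq2 (11394), limma-voom (11229), no filter (12315), a filter of 5 CPM in 5 libraries (8231), week 0 and week 1 libraries alone (10777), the tables without lengths (10642), the tables with lengths (9801), week 0 without replicates 1 and 4 (11296) and the 50 most abundant genes left out (11265). Fewer genes were called up than down in the reported fit (5565 and 5740), but more with RLE scaling (5729 and 5567), upper-quartile scaling (6206 and 5088), DESeq2 (5799 and 5595), no filter (6515 and 5800) and week 0 without replicates 1 and 4 (5700 and 5596). Leaving out each library in turn gave 10981 to 11372 genes called, 5337 to 5593 up, 5552 to 5779 down and 3431 to 3603 past 2-fold. With the filter of 5 CPM, 1635 genes were called and past 2-fold against 3497, since fewer genes were tested. A test against a 2-fold change (glmTreat), which asks for more, called 2193 genes, 1229 up and 964 down. The replicate number as a block gave 11096 genes and lost the call of CCNE1 (-0.226, adjusted p = 0.0611), and the pairing was not borne out: same-numbered libraries had correlations of deviations of -0.026 to 0.067, and none of the 5 week 0 libraries correlated best with its own number.

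Of 176 counts of list members called up or down, 19 moved by over 1.5 times with the tables with lengths alone, which hold 4 libraries, 8 with the tables without lengths and 9 with upper-quartile scaling. The list medians were less stable. Of 88 medians, 42 moved with the tables with lengths alone and 42 with upper-quartile scaling. A further 3 settings moved 29 (filter of 5 CPM), 28 (without week 0 replicates 1 and 4) and 24 (tables without lengths). A median moved when it shifted by at least the SD of the list's median among libraries within groups. Among the named genes and leading list members, 5 changed sign with the tables with lengths alone: B2M (log2 fold change 0.488), DYNC2H1 (-0.072), GAS5 (0.216), RANBP2 (-0.015) and S100A4 (0.014). B2M also did so without week 0 replicates 1 and 4 (0.414). Their cause was not tested. Sign changes of genes called under neither setting are not counted.

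A shorter window or a single strand can only lower a motif share or leave it as it is, by construction; the CCAAT share of the spindle list stayed at 78.4% before the start. With the window before the start only, either CHR form was in 14.1% of all promoters and 28.4% of those down over 4-fold. In the spindle list the CHR share was 51.4%. CCAAT was in 40.4% of all. The E2F core was in 10.6% of all, 18.1% of those down over 4-fold and 48.3% of the replication list. Both CCAAT and CHR were in 5.3% of all and 45.9% of the spindle list. On the given strand only, the CHR shares were 10.3% of all, 26.6% of those down over 4-fold and 62.2% of the spindle list. The CCAAT shares were 24.7%, 40.1% and, in the spindle list, 45.9%. The E2F shares were 6.8%, 10.0% and, in the replication list, 34.5%. The shares with both CCAAT and CHR were 2.2% of all and 32.4% of the spindle list. With the first-listed start only, chosen after seeing the data, the shares of all promoters were 11.8% for CHR, 35.9% for CCAAT, 9.9% for E2F and 4.8% for both.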
